A study of Mus musculus with 8 samples.

Results

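The smooth muscle contractile genes of the peritubular cells were followed in RNA-seq of mouse testis. The set names 9 genes, chosen by symbol: Acta2, Myh11, Tagln, Cnn1, Myl9, Tpm1, Tpm2, Des and Tcf21. Of these, 8 have a row among the 17121 genes of the table, and Tagln has none and was not analysed here. The series set testes labelled N6amt1-SKO (4 libraries, SKO 1 to 4) against testes labelled CTL (4 libraries, CTL 1 to 4), to ask how N6AMT1, a methyltransferase, acts in spermatogenesis. The labels do not spell out SKO, do not describe the CTL genotype, and give no age, strain or driver of the deletion. Whether each library is a testis of its own mouse is not stated, and p-values therefore reflect library-to-library spread alone, possibly technical.

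Peritubular myoid cells are flat, smooth-muscle-like cells that wrap each seminiferous tubule and contract to move sperm towards the rete testis. As in other smooth muscle, myosin heavy chains with their light chains pull on filaments of alpha-actin, tropomyosin and calponin lie along those filaments, and desmin ties the contractile apparatus together. Many genes of this programme are read by the serum response factor SRF, which binds the CArG box, a run of A and T between CC and GG, together with myocardin-family coactivators. Several of these genes are shared with the smooth muscle of blood vessel walls, and striated muscle also makes desmin and the tropomyosins.

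CArG boxes were looked for in the 250 bases before the RefSeq start (GRCm38.p6) of the 7 members that have an entry in the promoter table, because SRF is the textbook regulator of this gene set. Acta2, Myl9 and Tpm1 each held 2 matches with at most 1 letter off, and Cnn1, Tpm2, Des and Tcf21 held no such match. Of all 32851 promoters in the table, 18.6% held at least 1 such match and 2.96% held at least 2. The first Myl9 site matched in all 10 letters, which 1.47% of promoters did, and the other 5 sites matched in 9. The motif reads the same on both strands, so a single search covers them. The sites are shown 5′ to 3′ on the gene's strand with 10 flanking bases on each side and the box in capitals, so that they can be compared:
Acta2, 84 bases before the start (chr19:34255438-34255467, minus strand): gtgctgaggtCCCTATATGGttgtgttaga
Acta2, 34 bases before the start (chr19:34255388-34255417, minus strand): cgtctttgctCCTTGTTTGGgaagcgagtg
Myl9, 161 bases before the start (chr2:156775293-156775322, plus strand): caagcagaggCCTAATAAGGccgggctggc
Myl9, 99 bases before the start (chr2:156775355-156775384, plus strand): cattcttctgCCTTGTAAGGccgggcggcc
Tpm1, 221 bases before the start (chr9:67049415-67049444, minus strand): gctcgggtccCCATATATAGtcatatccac
Tpm1, 80 bases before the start (chr9:67049274-67049303, minus strand): acaagcttttCCAAAAAAGTattggctgtc
Distances run from the first base of the box. Both Acta2 sites and the second Tpm1 site lie within the bounds that GENCODE M21 gives to the same gene, downstream of its first exon base. Whether they fall in an exon or an intron was not checked. A match is a description of the letters in this window and no evidence of binding.

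The table held read counts that had been scaled per library and rounded, with column totals of 94.2 to 103 M (M for 10 to the power of 6). About 40.6 to 70.1 M reads lay behind the 6 libraries whose scaling could be read, and the scaling of CTL 1 and CTL 2 could not be read. SKO 4, CTL 3 and CTL 4 carried 0.726% to 0.979% of their values in 18S ribosomal RNA. The other 5 libraries carried 0.173% to 0.273%, and this difference is used below to split the libraries. No label names these sets, and whether they differ for technical reasons or in the tissue itself was not tested. Mitochondrial transcripts took 2.11% to 4.53% of the values in SKO and 1.13% to 1.99% in CTL libraries, and their part in the results was not tested. N6amt1 itself ranged from 557 to 625 in SKO and from 433 to 629 in CTL libraries, which does not check the genotype labels, as the targeted part of the gene is not stated. The tissue label is testis, but heart ventricles are named in the extraction protocol. The spermatocyte gene Piwil1 averaged 34862 ± 5243 in SKO and 57969 ± 4655 in CTL libraries, and the cardiac troponin gene Tnni3 averaged 4041 ± 827 in SKO and 1391 ± 316 in CTL libraries (SD, n = 4 each). Myl2, the ventricular myosin light chain gene, has no row. Values here and below are normalised values, which are the deposited values divided by a library factor.

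Most of the contractile genes were higher in SKO than in CTL testes. Of the 8 members, 6 rose (Acta2, Myl9, Tpm1, Tpm2, Des and Tcf21) and 0 fell by limma with an adjusted p below 0.05, and Myh11 and Cnn1 did not pass. By that rule 11.9% of all 17066 genes tested were higher and 7.93% lower. At an unadjusted limma p below 0.05, 8 members were higher and 0 lower, beside 21.7% and 15.3% of all genes. The median log2 fold change was 0.73 for the members and 0.04 for all genes tested. In bulk tissue a higher value is relative to the other RNA in the library. More cells of a type, more RNA per cell and less RNA from other cells cannot be told apart. Summed over the 8 members, the normalised values were 45627, 46434, 52937 and 44621 in SKO 1 to 4, against 30841, 25982, 29212 and 26995 in CTL 1 to 4. For 7 of the 8 members, all but Myh11, every SKO library lay above every CTL library, which held for 15.6% of all genes tested. The members were chosen with earlier results of these data known, which limits each of these comparisons with all genes.

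**Figure D1:**
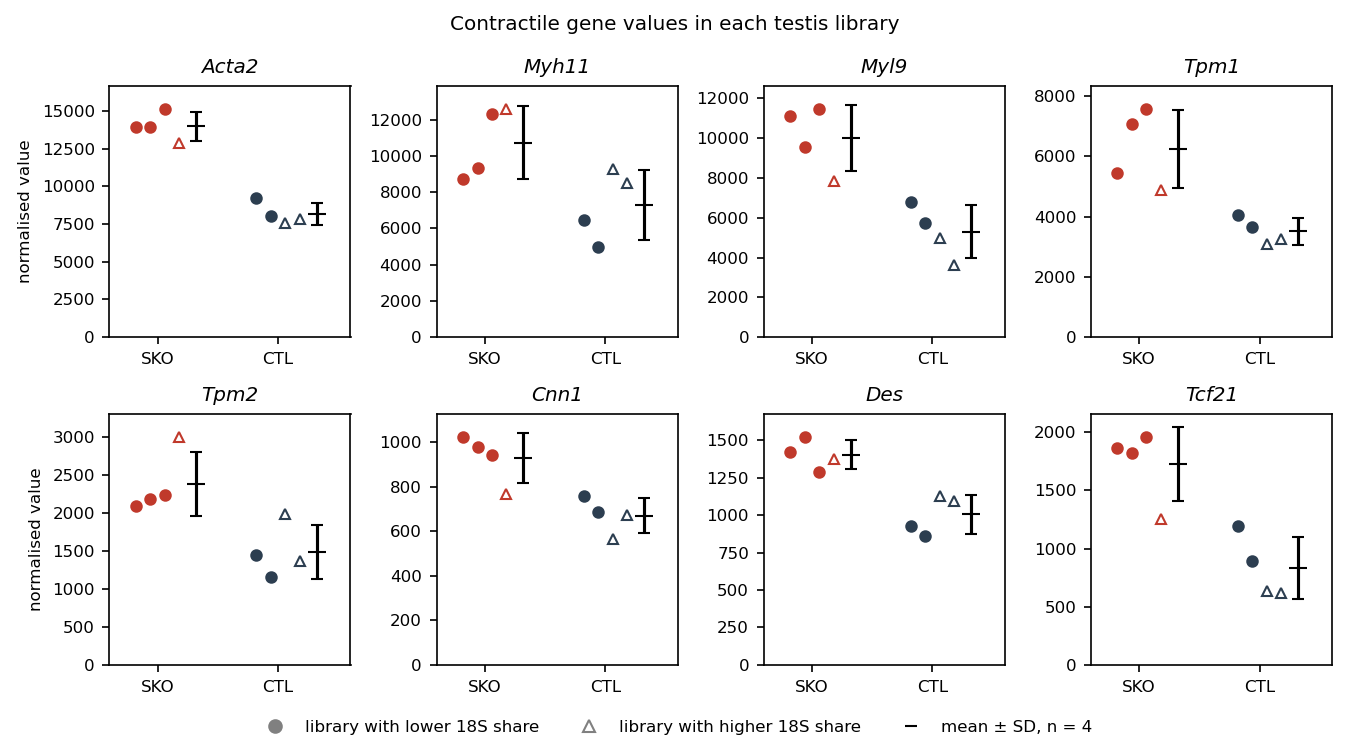
Normalised value (vertical axis, from 0) of each contractile gene in the 4 SKO and 4 CTL libraries, with circles for libraries with a lower 18S share, open triangles for those with a higher share, and bars for the mean ± SD. The groups are apart in every panel but that of Myh11, where SKO 1 (8718) lies below CTL 3 (9244).

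Acta2 encodes smooth muscle alpha-actin, the standard marker of peritubular myoid cells (GRCm38, chromosome 19, 34241090 to 34255590). Its values were 13919, 13975, 15149 and 12870 in SKO 1 to 4, against 9214, 8019, 7563 and 7868 in CTL 1 to 4. The lowest SKO library was thus above the highest CTL library, and the spread within each group was small, with means of 13978 ± 931 in SKO and 8166 ± 724 in CTL libraries (SD, n = 4 each). On the log2 scale the difference was 0.78 ± 0.12 (SE), with a 95% interval of 0.50 to 1.05 (limma adjusted p = 0.0123). Acta2 is closely alike in coding sequence to the other actin genes, and the handling of reads that map to several genes was not given in the sources used here.

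Myosin, the motor of the apparatus, was represented by a heavy chain and a light chain. Myl9 encodes the regulatory light chain of smooth muscle myosin, whose phosphorylation switches contraction on (chromosome 2, 156775420 to 156781658). It had 11139, 9557, 11474 and 7872 in SKO 1 to 4 and 6790, 5745, 4993 and 3626 in CTL 1 to 4. SKO 4 was the lowest SKO library and still lay above CTL 1, the highest CTL library. The means were 10011 ± 1653 in SKO and 5289 ± 1331 in CTL libraries (SD, n = 4 each), and the log2 fold change 0.94 ± 0.21 (SE; limma adjusted p = 0.0186).

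Myh11, the smooth muscle myosin heavy chain gene (chromosome 16, 14194535 to 14291372), did not pass. It had 8718, 9305, 12297 and 12588 in SKO 1 to 4 and 6447, 4980, 9244 and 8499 in CTL 1 to 4. CTL 3 and CTL 4, both with a higher 18S share, stood well above CTL 1 and CTL 2, and CTL 3 was above SKO 1. Over all libraries the log2 fold change was 0.58 ± 0.22 (SE), with a 95% interval of 0.09 to 1.07 (limma adjusted p = 0.087). Within the 5 libraries with a lower 18S share it was 0.82 (limma adjusted p = 0.0228), and with the 18S set as a covariate 0.71 (limma adjusted p = 0.0115). Within the 3 libraries with a higher share it was 0.52 (limma adjusted p = 0.333), without CTL 2 it was 0.36 (limma adjusted p = 0.243), and without both CTL 1 and CTL 2 it was 0.21 (limma adjusted p = 0.475).

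Of the thin filament genes, Tpm1 and Tpm2, which encode alpha- and beta-tropomyosin, rose. Tpm1 (chromosome 9, 67022590 to 67049406) had 5451, 7087, 7580 and 4886 in SKO 1 to 4 and 4060, 3641, 3093 and 3245 in CTL 1 to 4. SKO 2 and SKO 3 were the high libraries, and the groups did not overlap. Its log2 fold change was 0.82 ± 0.17 (SE; limma adjusted p = 0.0168). Tpm2 (chromosome 4, 43514711 to 43523765) had 2088, 2190, 2242 and 3009 in SKO 1 to 4 and 1454, 1155, 1992 and 1369 in CTL 1 to 4. Here SKO 4 was the highest library, and SKO 1 was only slightly above CTL 3. Its log2 fold change was 0.69 ± 0.20 (SE; limma adjusted p = 0.0378). The tropomyosin genes make several isoforms by alternative exons, which a value per gene adds together.

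Cnn1, the gene of basic calponin, which binds actin and slows the myosin motor in smooth muscle (chromosome 9, 22099216 to 22109630), had the smallest difference. Its values were 1024, 975, 942 and 765 in SKO 1 to 4 and 755, 686, 564 and 671 in CTL 1 to 4. The groups did not overlap, but SKO 4 and CTL 1 were nearly level. For Cnn1 the log2 fold change was 0.47 ± 0.16 (SE), with a 95% interval of 0.10 to 0.83 (limma adjusted p = 0.069).

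Des, the gene of the intermediate filament protein desmin (chromosome 1, 75360329 to 75368579), rose by a smaller amount. It had 1423, 1524, 1289 and 1376 in SKO 1 to 4 and 930, 862, 1127 and 1097 in CTL 1 to 4. All SKO libraries were above all CTL libraries, with CTL 3 and CTL 4 the higher of the CTL libraries. Desmin's log2 fold change was 0.49 ± 0.15 (SE; limma adjusted p = 0.044), and without CTL 1 and CTL 2 it was 0.28 (limma adjusted p = 0.28). An opposite-strand transcript without a row in the table covers 5.86% of its exon bases, and the library kit does not mark strand.

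Tcf21 differs from the other members in kind, since it encodes a basic helix-loop-helix transcription factor of mesenchymal cells and no part of a filament (chromosome 10, 22817281 to 22820174). In mouse testis it is known as a marker of interstitial mesenchymal cells. It had 1865, 1821, 1962 and 1254 in SKO 1 to 4 and 1190, 893, 636 and 621 in CTL 1 to 4. SKO 4 and CTL 1 came close to each other, while the other 3 SKO libraries were far above all CTL libraries. The means were 1726 ± 320 in SKO and 835 ± 268 in CTL libraries (SD, n = 4 each). Of the 8 members Tcf21 had the largest log2 fold change, 1.07 ± 0.24 (SE; limma adjusted p = 0.0193).

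**Figure D2:**
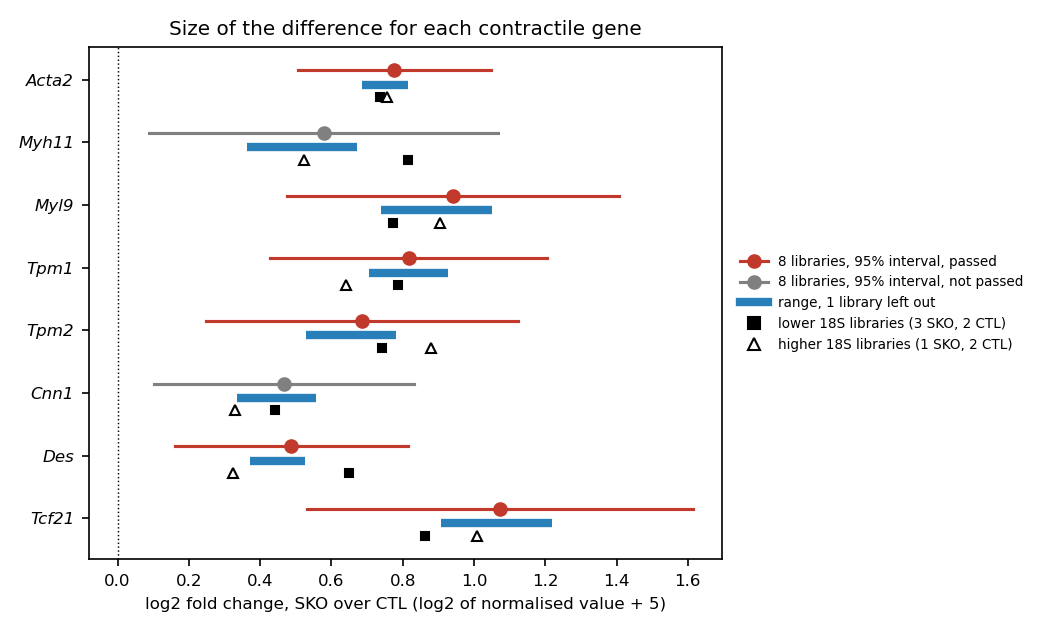
Log2 fold change of SKO over CTL for each contractile gene (horizontal axis, log2 of the normalised value plus 5), as the value over 8 libraries with its 95% interval, the range when 1 library is left out, and the values within the 5 libraries with a lower and the 3 with a higher 18S share. All points lie above 0, from Cnn1 (0.47) to Tcf21 (1.07) over 8 libraries.

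The number of members that passed changed with single libraries, as did the share of all genes. Without SKO 3 limma called 0 members as higher, although their log2 fold changes remained between 0.46 and 1.01 and 7 members were higher at an unadjusted p below 0.05. That setting called 0 of all genes tested (2790 higher and 1994 lower at an unadjusted p below 0.05). Without SKO 1, 2 members passed, beside 4.76% of all genes higher, and without CTL 3, 2 members beside 4.03%. Without SKO 2, 3 members passed, beside 4.86% of all genes. Without CTL 1, 4 members passed beside 8.16%, and without CTL 2, 4 members beside 6.5%. With median-ratio size factors 4 members passed, beside 9.39% of all genes, and Tpm2 and Des did not. Des passed in 1 of the 8 fits with 1 library left out and Tpm2 in 1, against 7 for Acta2 and 6 for Tpm1.

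Placed on a scale per kilobase of exon, which allows genes to be compared, the members spanned more than an order of magnitude. In SKO libraries the mean normalised value per kilobase was 8615 for Myl9, 6365 for Acta2, 1412 for Myh11, 964 for Tpm1, 819 for Tpm2, 735 for Tcf21, 374 for Des and 339 for Cnn1. In CTL libraries it was 4551, 3719, 960, 541, 513, 356, 268 and 244 in the same order of genes. The range of Acta2 lay above that of Myh11 in each group. Myh11 lay above Tpm1 without overlap in CTL libraries alone, and Tcf21 above Des in SKO libraries alone. The ranges of Myl9 and Acta2, of Tpm1 and Tpm2, of Tpm2 and Tcf21, and of Des and Cnn1 crossed in both groups. Exon lengths are those of all GENCODE exons of a gene joined together, which understates the level of a gene with many alternative exons.

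The members did not vary in 1 common way within the groups. In SKO, the library with a higher 18S share (SKO 4) differed from the other 3 by 0.47 for Tpm2 and 0.33 for Myh11 on the log2 scale. The same difference was -0.58 for Tcf21, -0.44 for Myl9, -0.44 for Tpm1, -0.35 for Cnn1, -0.16 for Acta2 and -0.03 for Des. In CTL, the libraries with a higher share (CTL 3 and 4) differed from CTL 1 and 2 by 0.64 for Myh11, 0.35 for Tpm2 and 0.31 for Des, and by -0.71 for Tcf21, -0.55 for Myl9, -0.28 for Tpm1, -0.23 for Cnn1 and -0.16 for Acta2. Of the 8 members, 7 thus had the same sign in both groups and Des did not. The share of all genes with the same sign was not counted, so this is no trait of the members. Over all genes tested the medians of these differences were -0.07 in SKO and -0.0033 in CTL. In SKO the split rests on a single library, and in CTL it also separates the 2 libraries whose scaling could not be read from the others, so these are values with no test. The ratio of Myh11 to Acta2 followed the same split, at 0.626, 0.666, 0.812 and 0.978 in SKO 1 to 4 and 0.700, 0.621, 1.22 and 1.08 in CTL 1 to 4.

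**Figure D3:**
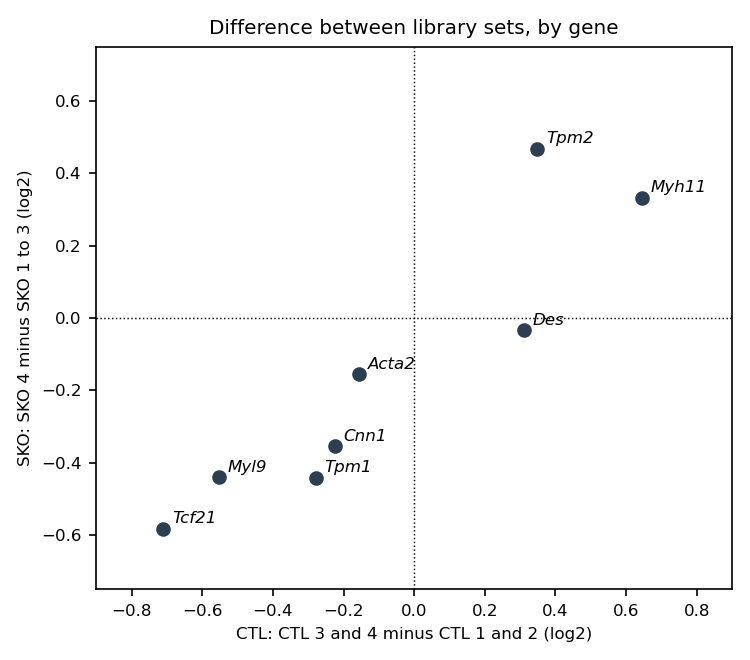
Difference in log2 normalised value between libraries with a higher and a lower 18S share, within SKO (vertical axis, SKO 4 minus SKO 1 to 3) and within CTL (horizontal axis, CTL 3 and 4 minus CTL 1 and 2), 1 point per contractile gene. Myh11 and Tpm2 lie above 0 on both axes, and Acta2, Cnn1, Tpm1, Myl9 and Tcf21 lie below 0 on both.

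Within the libraries with a lower 18S share (SKO 1 to 3 against CTL 1 and 2), 7 of the 8 members rose and Cnn1 did not pass (log2 fold change 0.44, limma adjusted p = 0.0616), while 18.8% of all genes tested there were higher. The log2 fold changes were then more alike, from 0.65 for Des to 0.86 for Tcf21 among the 7. Within the libraries with a higher 18S share (SKO 4 against CTL 3 and 4) the values ran from 0.32 for Des to 1.01 for Tcf21, and limma called 0 members, with 4 at an unadjusted p below 0.05. Of all genes tested there, 0.262% were called higher and 7.64% were higher at an unadjusted p below 0.05. That set has a single SKO library, which limma takes to vary like the CTL libraries.

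Among other genes of the contractile pathway, rises outnumbered falls, and most genes did not pass. Of 73 genes in 4 further lists, 68 were tested, and 14 rose and 3 fell (limma adjusted p below 0.05), beside 11.9% higher and 7.93% lower among all genes tested. Their median log2 fold change was 0.28, and 50 of the 68 had a positive value.

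Among 32 genes of the contraction machinery and its control by calcium and RHOA, 8 rose, 0 fell and 24 did not pass. By that rule 11.9% of all genes tested were higher and 7.93% lower. At an unadjusted limma p below 0.05, 11 of the list were higher and 1 lower, beside 21.7% and 15.3% of all genes. The genes that rose include Smtn, for the actin-binding protein smoothelin, with 1507 ± 330 in SKO and 921 ± 128 in CTL libraries, and Lmod1, for an actin filament nucleator of smooth muscle, with 960 ± 190 in SKO and 591 ± 52.5 in CTL libraries (SD, n = 4 each). Pdlim3 and Pdlim7, for PDZ and LIM domain proteins of actin bundles, rose by 0.99 and 0.83 on the log2 scale. Cavin1, for a coat protein of caveolae, rose by 0.70, and Arhgef1, for a guanine nucleotide exchange factor of RHOA, by 0.48. Myl12a and Myl12b, for light chains of non-muscle myosin, rose by 0.90 and 1.10, but their sequences are nearly alike and their exons overlap in GENCODE, so their own values are uncertain. Opposite-strand transcripts without a row in the table cover 16.3% of the exon bases of Smtn. Mylk, the kinase gene that acts on Myl9 protein, had 10696 ± 1963 in SKO and 8581 ± 2237 in CTL libraries (limma adjusted p = 0.276). Actg2, the smooth muscle gamma-actin gene, had 5183 ± 2860 in SKO and 7386 ± 5408 in CTL libraries (limma adjusted p = 0.805). It varied widely within the groups, with 9328, 4747, 3693 and 2962 in SKO 1 to 4 and 9874, 13671, 4341 and 1660 in CTL 1 to 4. Calmodulin gene Calm2, the most abundant of the list per exon length, had 50875 ± 1989 in SKO and 53253 ± 9689 in CTL libraries (SD, n = 4 each; limma adjusted p = 0.861).

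Genes for SRF and its partners mostly did not pass. Of 11 tested, 2 rose, 1 fell and 8 did not pass, beside 11.9% higher and 7.93% lower among all genes tested. Mrtfa, the myocardin-related coactivator of SRF that responds to actin polymerisation, had 7279, 7953, 8146 and 8024 in SKO 1 to 4 against 10766, 10698, 17295 and 14503 in CTL 1 to 4. All SKO libraries were below all CTL libraries, and the log2 fold change was -0.73 ± 0.17 (SE; limma adjusted p = 0.0217). Fhl2, for a LIM-only cofactor, rose by 1.03, and Elk1, for an ETS factor that binds beside SRF, by 0.83 on the log2 scale. Srf itself had 8004 ± 461 in SKO and 9274 ± 1931 in CTL libraries (limma adjusted p = 0.396), and Myocd, for myocardin, was low at 75.4 ± 48.5 in SKO and 105 ± 23.0 in CTL libraries (limma adjusted p = 0.361). Klf4, the most abundant of the list per exon length, had 12355 ± 2900 in SKO and 18108 ± 6785 in CTL libraries (SD, n = 4 each; limma adjusted p = 0.292).

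Of 14 tested genes for hormones, growth factors and receptors that act on smooth muscle, 1 rose, 1 fell and 12 did not pass. Among all genes tested, 11.9% were higher and 7.93% lower. Edn1, for endothelin-1, a peptide that makes myoid cells contract, was low but rose, with 293, 247, 369 and 191 in SKO 1 to 4 against 121, 94.0, 72.7 and 90.1 in CTL 1 to 4. The groups were well apart, and the log2 fold change was 1.48 ± 0.28 (SE; limma adjusted p = 0.0137). Agtr1a, for an angiotensin II receptor, fell to 902 ± 142 in SKO libraries, against 1827 ± 262 in CTL libraries (SD, n = 4 each; log2 fold change -1.02, limma adjusted p = 0.0123). The endothelin receptor gene Ednra had 1156 ± 382 in SKO and 813 ± 167 in CTL libraries (limma adjusted p = 0.218). The oxytocin receptor gene Oxtr had 1096 ± 448 in SKO and 1113 ± 160 in CTL libraries (limma adjusted p = 0.822). Agt, for the angiotensin precursor and the most abundant of the list per exon length, had 3536 ± 1244 in SKO and 3191 ± 922 in CTL libraries (limma adjusted p = 0.823).

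Of 11 tested non-muscle paralogs and cytoskeleton genes, 3 rose, 1 fell and 7 did not pass. The shares of all genes tested were 11.9% higher and 7.93% lower. Cnn2 and Cnn3, the genes of the calponins found outside muscle, rose by 0.70 and 1.21 on the log2 scale, where Cnn1 did not pass. The difference between the calponin genes was not tested, and an opposite-strand transcript without a row covers 17.7% of the exon bases of Cnn3. Vim, for the intermediate filament protein vimentin of mesenchymal and Sertoli cells, had 30644 ± 2921 in SKO and 16917 ± 370 in CTL libraries (SD, n = 4 each; limma adjusted p = 0.0123). Actg1, for cytoplasmic gamma-actin, fell to 61288 ± 4623 in SKO libraries, against 87154 ± 14058 in CTL libraries (SD, n = 4 each; limma adjusted p = 0.0469). Actb, for cytoplasmic beta-actin, had 82431 ± 20656 in SKO and 72468 ± 10009 in CTL libraries (SD, n = 4 each; limma adjusted p = 0.571).

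**Figure D4:**
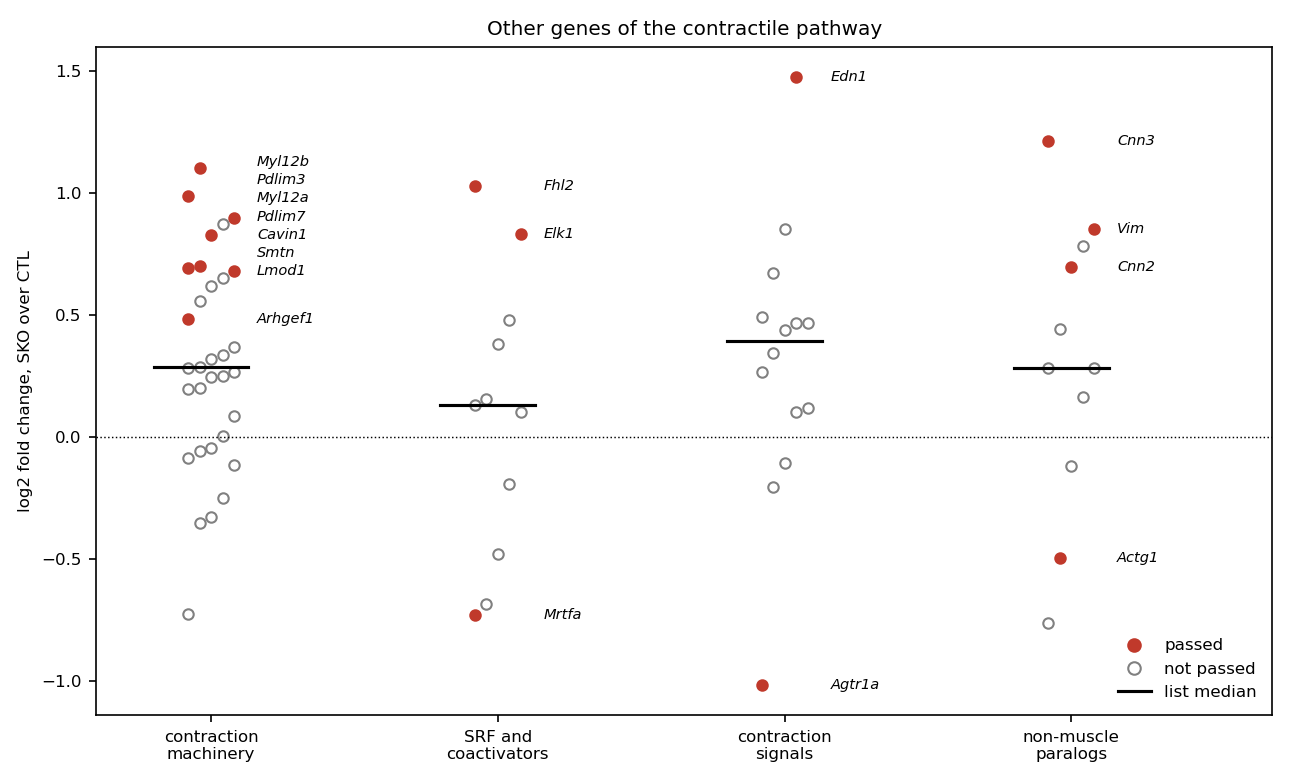
Log2 fold change of SKO over CTL (vertical axis) for the tested genes of 4 pathway lists, filled red and named where the limma adjusted p was below 0.05 and open grey where it was not, with a bar at the list median. The names beside the contraction machinery run from top to bottom in the order of the values, and list medians lie between 0.13 and 0.39.

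Markers of other cell types differed by list. Their counts stand beside 11.9% of all genes tested higher and 7.93% lower at a limma adjusted p below 0.05. At an unadjusted limma p below 0.05 these shares were 21.7% and 15.3%. Of 19 Sertoli cell markers 13 rose and 0 fell (17 and 0 at an unadjusted limma p below 0.05), with a median log2 fold change of 1.02. Their summed value was 220129 to 458036 in SKO and 99185 to 229840 in CTL libraries. Within the groups it was lowest in SKO 4, CTL 3 and CTL 4. Acta2, Cnn1, Myl9, Tpm1 and Tcf21 were also lowest in these libraries. Myh11 was highest in them, at 12588 in SKO 4, 9244 in CTL 3 and 8499 in CTL 4. Tpm2 and Des did not follow the order of the Sertoli sum either. Clu, the most abundant of them, had 160089 ± 60120 in SKO and 63805 ± 41333 in CTL libraries and did not pass (SD, n = 4 each; limma adjusted p = 0.0651), while the hormone gene Amh and the steroid carrier gene Shbg rose by 1.63 and 1.51 on the log2 scale.

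Of 9 pericyte and vascular wall markers, the other smooth muscle source, 0 rose and 0 fell by limma (2 and 0 at an unadjusted p below 0.05), with a median of 0.27 and summed values of 6317 to 11478 in SKO and 6264 to 9226 in CTL libraries. Mcam, of vessel wall and endothelium, had 2547 ± 972 in SKO and 1520 ± 507 in CTL libraries (SD, n = 4 each; limma adjusted p = 0.172). Of 14 stromal and matrix markers, 3 rose (among them Dcn by 0.93 and Gli1 by 1.05 on the log2 scale) and 0 fell, with a median of 0.37 and sums of 84763 to 192037 in SKO and 83511 to 112554 in CTL libraries. Of 28 striated muscle genes, 15 have no row, among them those of the skeletal and cardiac alpha-actins, Ckm and Myl2. Of the 13 tested, Tnni3 rose by 1.54 and Tnnt2 by 1.01 and 0 fell, with sums of 9202 to 12610 in SKO and 7861 to 8958 in CTL libraries. By the same test, 2 of 8 Leydig markers rose and 0 fell, 2 of 14 endothelial markers rose (Robo4 and Cldn5) and 1 fell (Sox17), and 1 of 12 macrophage markers rose (C1qc). Of 7 spermatocyte markers 3 fell, with sums of 443829 to 511022 in SKO and 544942 to 760914 in CTL libraries. Limma called 0 of the 6 spermatid markers and 0 of the 2 epididymis markers with a row, also at an unadjusted p below 0.05. Spermatid sums ran from 89441 to 378141 in SKO and from 34780 to 403873 in CTL libraries, Leydig sums from 44163 to 81050 in SKO and from 48861 to 64274 in CTL libraries. Endothelial sums ran from 9465 to 16038 in SKO and from 10607 to 14487 in CTL libraries, macrophage sums from 13434 to 25573 in SKO and from 11589 to 27374 in CTL libraries. No tested marker was listed at 0, and the part of these cell types in the results for the contractile genes was not tested.

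**Figure D5:**
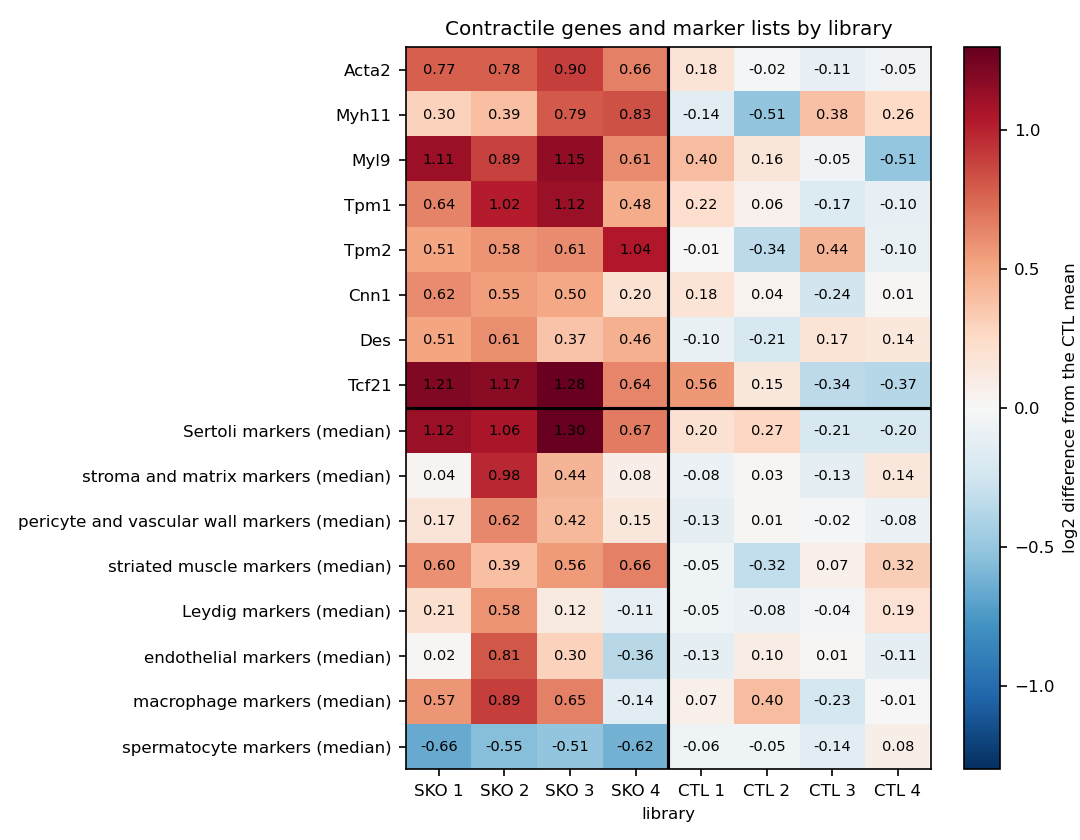
Log2 difference of each library from the CTL mean (colour and number in each cell) for the 8 contractile genes in the upper block and for the median of 8 marker lists in the lower block, with SKO libraries at the left and CTL libraries at the right. Acta2 lies between 0.66 and 0.90 in the SKO libraries, the Sertoli marker median between 0.67 and 1.30, and the spermatocyte marker median between -0.66 and -0.51.

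By the pattern over the 8 libraries, the genes most like Acta2 among 12234 with a mean of at least 500 were Ubtf, a nucleolar transcription factor gene (Pearson r 0.997 on log2 values), Fxyd6 (0.997) and Max (0.996). The most like Tcf21 were Luc7l (0.993), Dlk1 (0.992) and Utp25 (0.992). The libraries share the group difference and the 18S split, so such values describe these 8 libraries and nothing of shared function. Ubtf had 12302, 12416, 13775 and 11014 in SKO 1 to 4 and 7946, 7262, 6936 and 7088 in CTL 1 to 4. Dlk1, for a Notch ligand homologue, had 1173, 1174, 1484 and 716 in SKO 1 to 4 and 540, 352, 202 and 241 in CTL 1 to 4, so that SKO 4 and CTL 1 were again the closest libraries of the groups.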

How the data were processed

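RNA-seq was made from testis, 4 libraries per genotype label, with a NEBNext Ultra RNA kit per the labels' protocols. Per the submitters' processing notes, the tools included featureCounts 1.5.0-p3, HISAT2 2.0.5, fastp and CASAVA, on build mm10 (GRCm38). Annotation, strand setting and treatment of multiply mapped reads were not given in the sources used here.

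As deposited, the values are a score, namely read counts per gene times a library factor of the authors, rounded. The values themselves show it, since in 6 libraries 100.0% of values up to 1000 are rounded multiples of 1 factor, as 43.0% to 68.0% of all whole numbers in that range would be. Members had 304 to 10031 reads in these 6 libraries. The lowest row maximum was 95, so low genes have no row. Why Tagln has no row was not tested. Opposite-strand genes, among them Pcsk7, cover 67.9% of the exon bases of Tagln, and the library kit does not mark strand.

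The filter kept genes that reached 25 in 4 or more libraries (17066 of 17121, including all 8 members with a row). Library factors came from TMM scaling (trims of 30% and 5%). On log2(normalised value + 5), a scale that understates changes of low genes, limma 3.58.1 (R 4.3.3) was fitted with a mean trend and no covariate. Its two-sided p-values were adjusted by the Benjamini-Hochberg method across the whole table, and 0.05 was the threshold. Lists have no test of their own and are described by counts, medians and sums. Named genes were the members, each pathway gene that passed and the most abundant of its list, the most abundant and up to 2 passing markers of each cell type list, and the genes nearest in pattern to Acta2 and Tcf21. Others (Srf, Mylk, Actg2, Myocd, Ednra, Oxtr, Myl2 and the called marker Sox17) were added for their known role after values were seen. The values of 1 stromal marker are not reported here. The members and lists were chosen with earlier results of these data known. Coordinates and exon lengths come from GENCODE M21 (GRCm38) and promoters from RefSeq. Alternatives were other scalings, constants, filters, variance models, a replicate block, the 18S sets, and leaving out libraries.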

Additional observations from a re-analysis of the deposited data

Results flagged for a closer look

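Among 114 groups of 4 libraries checked for the named genes, 6 held a library far from the others. The limit used is passed by chance in about 1 in 20 groups. These groups share the same 8 libraries and are not independent, so the count cannot tell whether the flags are due to chance. Tpm2 was high in SKO 4 (3009, others 2088 to 2242). Dcn was low in CTL 3 (4126, others 5978 to 6200), and Shbg was low in SKO 4 (2300, others 3972 to 4145). In SKO 1, the macrophage gene Aif1 (9952, others 3169 to 4217), Cst8 of the epididymis list (4268, others 1718 to 1926) and the spermatid gene Tnp2 (143037, others 27582 to 42687) were high. The spermatid list median, as a log2 difference from the CTL mean, was 1.10, -0.65, -0.47 and -0.72 in SKO 1 to 4. In CTL 1 to 4 it was 1.13, 1.29, -0.53 and -2.10.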

How the results depend on the processing

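All 8 members with a row had a positive log2 fold change under all 22 alternatives. Of their 176 values under these, 133 kept their side of the threshold, 35 no longer passed and 8 newly passed. Leaving out 1 library gave 0 to 5 members, 0 to 19 pathway genes and 0 to 2455 genes as higher, and 0 to 4 pathway genes and 0 to 1526 genes as lower; the smallest adjusted p without SKO 3 was 0.0569. Scaling moved the balance of all calls: 60.1% were higher with TMM factors, 49.2% with median-ratio factors (median of all genes -0.02), 67.4% with upper quartile factors and 91.5% with library totals (4885 higher, 456 lower, 27 pathway genes higher). Totals moved the median of all genes to 0.33, and relative to it the members changed by 0.43 to 1.03. Array weights gave 5320 higher and 4700 lower genes, with 41 and 8 pathway genes. The lower 18S libraries gave 3194 and 2283 genes and 24 pathway genes higher. The 18S set as a covariate gave 2801 and 2210 genes and 7 members. The 3 libraries with a higher 18S share gave 43 and 252 genes, 0 members, and 0 pathway genes in either direction (9 and 7 at an unadjusted limma p below 0.05). Without CTL 1 and CTL 2, 2322 genes and 5 pathway genes were lower, and 4 members were higher. The causes were not tested. Deviations of same-numbered libraries had correlations of 0.67, 0.01, 0.08 and 0.23, and those of other library pairs ran from -0.72 to 0.71. These values do not settle whether the numbers pair the libraries. A replicate block gave 2162 higher and 1701 lower genes, and 15 and 4 pathway genes. Under it 6 members passed, with Myh11 gained (limma adjusted p = 0.0295) and Des lost (limma adjusted p = 0.0702).

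Genes that did not pass could change sign. Calm2 (-0.05) went to 0.24 with library totals, 0.15 in the higher 18S libraries and 0.11 without CTL 1 and CTL 2. Agt (0.12) went to -0.84 in the higher 18S libraries and -0.087 without CTL 1 and CTL 2, and ranged from -0.14 to 0.39 with 1 library left out. Aif1 (0.06) went to -0.0065 with median-ratio factors, -1.16 with array weights (limma adjusted p = 0.0248), -0.42 with the 18S covariate and -1.12 in the lower 18S libraries, and ranged from -0.69 to 0.53. Cst8 (-0.35) and Tnp2 (-0.42) went to 0.34 and 0.41 in the higher 18S libraries and to 0.49 and 0.55 without CTL 1 and CTL 2. Depth limits the low genes most, such as Myocd.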
